A study of Mus musculus with 12 samples.

Results

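A set of 10 genes that mark bile duct cells and liver progenitor cells was followed in liver tumors of aged mice of the p21+/Tert and p21+/TertCi genotypes and in the non-tumoral livers of the same animals. They were taken by symbol from a list of known markers: the transcription factor Sox9, the surface glycoproteins Prom1, Cd24a, and Epcam, the secreted ligand Spp1, and the keratins Krt8, Krt18, Krt7, Krt19, and Krt23. All 10 are among the 24421 gene symbols that were counted, and all 10 passed the filter on low counts. In these mice, Tert or TertCi, a form of the protein without catalytic activity, is expressed from the promoter of p21 (Cdkn1a), so its expression is tied to p21 and is not limited to hepatocytes. All mice carried 1 of these alleles and were kept on a standard diet, and no wild-type mouse is among the samples analysed here.

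The tumors of p21+/Tert mice were T-HCA992, T-HCC941, T-HCC663, and T-HCC662, and those of p21+/TertCi mice were TCi-HCA984 and TCi-HCC981, where HCC stands for hepatocellular carcinoma and HCA for hepatocellular adenoma. T-HCC663 bears the HCC name but was read as an adenoma in the study's histology. Each mouse gave 1 tumor and 1 non-tumoral liver, so that there were 6 tumors and 6 livers. The livers are named L662, L663, L941, L992, L981, and L984 by the number of the mouse, which the tumor's name shares. The study's sequencing of tumor DNA assigns T-HCC662 and T-HCC663 to mutated Ctnnb1, the gene of β-catenin, and T-HCC941 and TCi-HCC981 to mutated Egfr or Hras. T-HCA992 and TCi-HCA984 carried none of these mutations. A class thus holds 2 tumors. The Ctnnb1 class holds p21+/Tert tumors only, so that its class and genotype cannot be fully separated. The label of 1 p21+/Tert liver holds an animal number that is not in the study's list, and by elimination this liver was assigned to the mouse of T-HCC662.

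Bile ducts are lined by cholangiocytes, which arise together with hepatocytes from the bipotent hepatoblasts of the fetal liver. SOX9, driven in part by Notch and YAP signaling, marks the ductal lineage, and hepatocytes under injury can switch on some ductal genes. Keratins pair as a type I and a type II chain: hepatocytes make keratins 8 and 18 only, whereas cholangiocytes add keratins 7 and 19. Levels are given as counts per 1000000 counted reads (CPM) of the scaled library, and 3 reads, taken as the lower limit of detection in a library, were worth between 0.107 and 0.227 CPM. The libraries held between 14571716 and 26170661 counted reads. In bulk tissue, fewer cells of a type and less RNA per cell cannot be told apart.

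The levels of the 10 genes in the non-tumoral livers spanned a wide range. Per kilobase of transcript, the mean level of the 6 livers was highest for Krt18 (276 CPM per kb), followed by Krt8 (154 CPM per kb) and Spp1 (44.8 CPM per kb). Sox9 and Cd24a stood at 2.36 and 1.601 CPM per kb. Krt19, Krt23, Epcam, Prom1, and Krt7 lay below 1, at 0.760, 0.621, 0.578, 0.258, and 0.203 CPM per kb. The genes that define ducts against hepatocytes were thus covered by few reads in the livers, whereas the keratin pair of hepatocytes was covered by many. In the tumors, the order of the first 3 was the same (439 for Krt18, 253 for Krt8, and 191 CPM per kb for Spp1), and Prom1 (5.97 CPM per kb), Krt23 (5.51 CPM per kb), and Sox9 (5.44 CPM per kb) came next.

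Promoter sequences, from 250 bases before to 50 bases after a start of transcription as RefSeq gives it on GRCm38.p6, were found for 7 of the 10 genes. Those of Prom1, Krt8, and Krt18 are shown, the first because Prom1 was raised in every tumor and the others because Krt8 and Krt18, neighbors on chromosome 15 whose proteins pair in filaments, varied together. Prom1 lies on the minus strand at chr5:43993620-44102032, Krt8 on the minus strand at chr15:101996698-102004482, and Krt18 on the plus strand at chr15:102028180-102032027 (GRCm38, GENCODE M21). The windows shown are chr5:44101687-44101986 (minus strand), chr15:102004293-102004592 (minus strand), and chr15:102027966-102028265 (plus strand). Capitals mark matches to short motifs on either strand.
Prom1: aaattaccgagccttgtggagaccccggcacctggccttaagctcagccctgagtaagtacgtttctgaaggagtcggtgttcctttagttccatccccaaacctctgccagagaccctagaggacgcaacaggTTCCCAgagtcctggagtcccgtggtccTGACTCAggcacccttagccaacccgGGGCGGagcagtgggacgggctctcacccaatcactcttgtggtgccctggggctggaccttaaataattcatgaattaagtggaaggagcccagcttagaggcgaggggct
Krt8: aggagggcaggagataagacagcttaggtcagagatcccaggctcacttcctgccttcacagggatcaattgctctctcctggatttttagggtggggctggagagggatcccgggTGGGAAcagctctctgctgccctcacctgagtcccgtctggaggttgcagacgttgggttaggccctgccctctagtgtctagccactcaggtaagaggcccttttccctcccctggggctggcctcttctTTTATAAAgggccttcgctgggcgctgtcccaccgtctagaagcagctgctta
Krt18: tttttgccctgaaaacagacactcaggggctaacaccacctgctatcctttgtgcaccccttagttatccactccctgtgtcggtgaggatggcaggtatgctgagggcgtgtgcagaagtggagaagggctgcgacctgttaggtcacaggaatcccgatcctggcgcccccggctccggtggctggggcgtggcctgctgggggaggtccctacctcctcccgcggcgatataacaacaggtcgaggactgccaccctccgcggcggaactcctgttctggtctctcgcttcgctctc

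The Prom1 window holds the AP-1 motif TGANTCA 88 bases before the start, the SP/KLF motif GGGCGG, and, on the opposite strand, the RBPJ motif TGGGAA. The Krt8 window holds TGGGAA and the TATA box TATAAA, the latter on both strands in overlapping letters, and the Krt18 window holds none of the motifs searched. Over all 32851 promoters in the table, 7.81% held TGANTCA, 35.7% GGGCGG, 25.6% TGGGAA, and 13.6% TATAAA. The TCF/LEF motifs CTTTGAT and CTTTGAA, held by 3.73% and 5.14% of all promoters, and the TEAD motif GGAATG, held by 14.7%, were in 0 of the 9 windows of these genes. A match is a description of the letters and no evidence of binding.

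Prom1 was the gene most clearly raised in tumors. It encodes prominin-1 (CD133), a pentaspan glycoprotein of membrane protrusions that marks progenitor cells and the apical side of ducts. In L662, L663, L941, L992, L981, and L984, its level was 0.495, 1.22, 0.227, 1.07, 2.06, and 1.26 CPM. In the tumors of the same mice, in the same order, it was 6.08, 17.8, 33.7, 39.5, 37.7, and 11.8 CPM. The lowest tumor, T-HCC662, was above the highest liver, L981, so the groups did not overlap. All 6 tumors were above all 6 livers in 2.93% of the 13822 genes tested, and all 6 were below in 2.18%. Prom1 rose by 4.48 on the log2 scale (SE 0.57, n = 6 tumors against 6 livers) with an adjusted p of 0.00089 by edgeR's quasi-likelihood test with Benjamini-Hochberg adjustment. This call was kept in each of the 4 alternative analyses and in each of the 12 analyses that left out 1 library.

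Against its own liver, the log2 ratio of Prom1, on the log2(CPM + 0.1) scale, lay between 3.12 in TCi-HCA984 and 6.69 in T-HCC941. The last value rests on 3 reads in L941 against 624 in the tumor. Without the added 0.1 CPM, these reads give a 148-fold difference with a 95% interval from 50.4 to 720. The interval covers counting error only, as do all such intervals and limits here. The median of all genes on chromosome 5, where Prom1 lies, ran from -0.18 in TCi-HCC981 to 0.22 in T-HCC941. The study's tumor DNA shows a gain on chromosome 5 in both of these tumors. The part of chromosome 5 in the Prom1 levels was not tested. Over the 12 libraries, the genes with the most similar pattern were Clip2, Pygb, and Lif, with a Pearson r of 0.98, 0.97, and 0.97, as a description over libraries that share the tumor and liver difference.

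Krt23, an acidic keratin of low abundance in normal liver, was high in 4 tumors and low in 2. Its level in the livers, in the order L662, L663, L941, L992, L981, and L984, was 1.06, 2.45, 0.303, 1.13, 0.798, and 0.0969 CPM. In the tumors it was 0.180, 17.1, 9.34, 11.9, 0.668, and 12.5 CPM. T-HCC663, T-HCC941, T-HCA992, and TCi-HCA984 stood above every liver, whereas T-HCC662 and TCi-HCC981 lay within the range of the livers. The 2 low tumors belonged to different driver classes and genotypes. In the comparison of the 6 tumors with the 6 livers, Krt23 rose by 3.15 on the log2 scale (SE 0.93), with an adjusted p of 0.0473 in edgeR's quasi-likelihood test. With the mouse as a block the log2 fold change was 2.64 and the adjusted p 0.152, and the call was kept in 2 of the 12 analyses that left out 1 library, those without T-HCC662 or TCi-HCC981 (adjusted p over the 12 from 0.0126 to 0.0982). The rise of 129-fold in TCi-HCA984 against its own liver, taken without the added 0.1 CPM, rests on 220 reads against 2, with a 95% interval from 35.3 to 1071. The 3 genes of most similar pattern over the 12 libraries were Wdr35 (r = 0.91), Klk1b4 (r = 0.90), and Syde1 (r = 0.87).

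Prom1 and Krt23 were the 2 of 10 members called as higher in the comparison of the 6 tumors with the livers, where 6.77% of the 13822 genes tested rose, and 0 of 10 fell, where 3.91% of all genes fell. The median log2 fold change of the 10 was 0.68, against 0.01 for all genes tested. The largest changes that did not pass the test were in Spp1 (2.09, adjusted p = 0.202), Sox9 (1.20, adjusted p = 0.230), and Krt7 (-1.07, adjusted p = 0.433). In each of these, tumors differed from each other in direction, as they also did for Krt23 against the own liver.

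**Figure D1:**
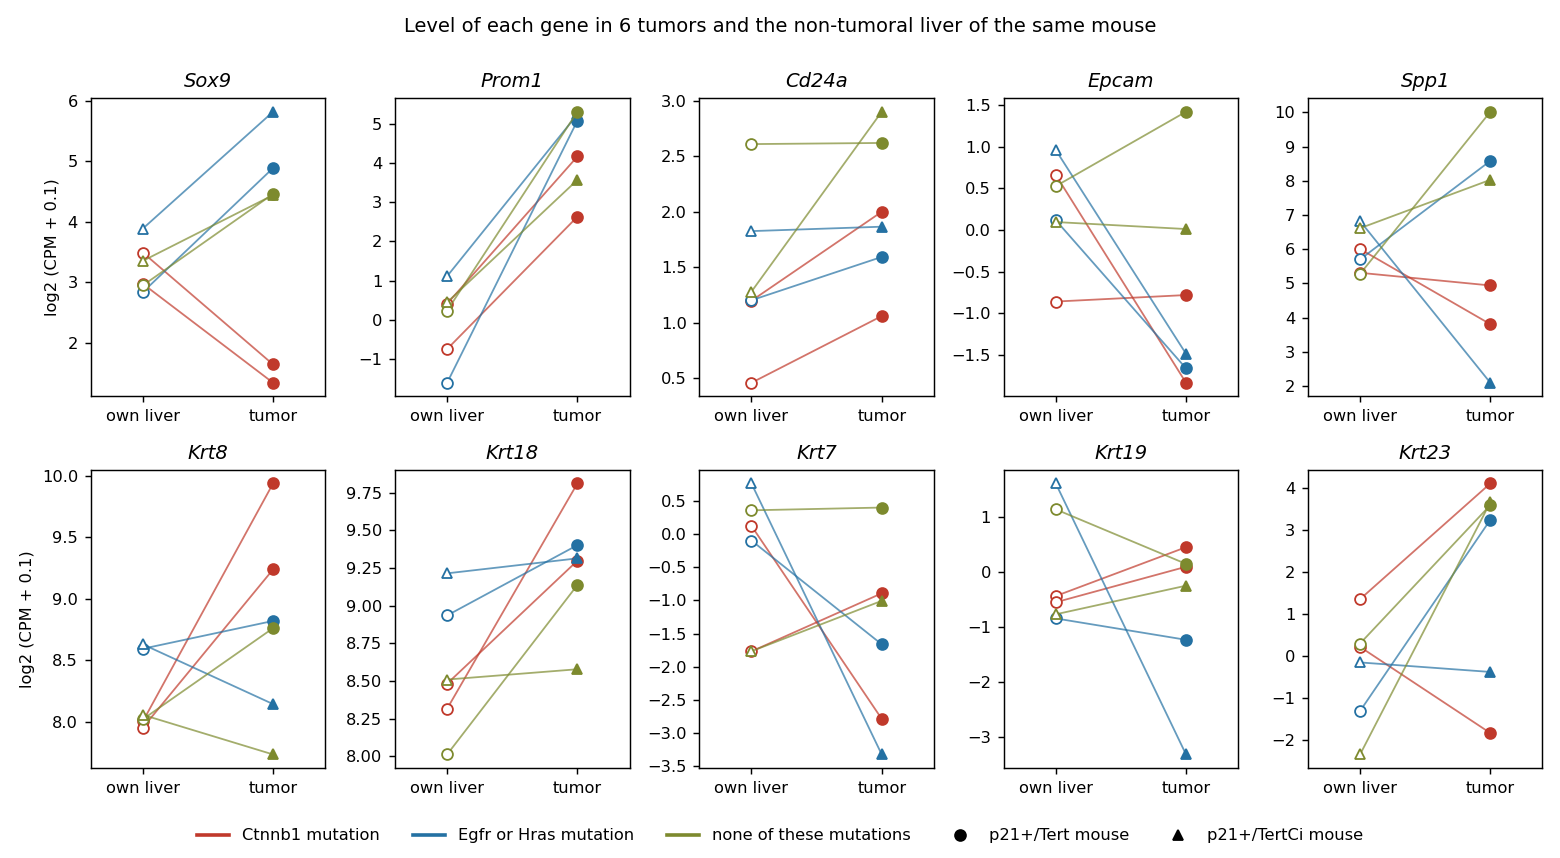
Level of each gene, as log2(CPM + 0.1) on axes scaled per gene, in 6 non-tumoral livers (open symbols) and the tumors of the same mice (filled symbols, joined by lines), colored by driver class, with circles for p21+/Tert and triangles for p21+/TertCi mice. All 6 Prom1 lines rise, the 2 Ctnnb1 lines of Sox9 fall while the other 4 rise, and TCi-HCC981 lies lowest for Krt7, Krt19, and Spp1.

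Sox9 split the tumors by driver class. In the livers, in the order L662, L663, L941, L992, L981, and L984, its level was 7.77, 11.2, 7.05, 7.62, 14.7, and 10.1 CPM. Of the Ctnnb1-mutated tumors, T-HCC662 had 2.43 CPM and T-HCC663 had 3.02 CPM. In T-HCC941 and TCi-HCC981 it was 29.5 and 56.3 CPM, and in T-HCA992 and TCi-HCA984 it was 21.9 and 21.6 CPM. Both Ctnnb1-mutated tumors were below every liver and each of the 4 others was above every liver, a pattern that 68 of the 13822 genes (0.492%) shared. Against its own liver, Sox9 was lower by 1.64 and 1.85 on the log2(CPM + 0.1) scale in the first pair of tumors and higher by 1.09 to 2.05 in the rest.

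In the fit of driver classes, which took the 6 livers and all 6 tumors in 1 model, Sox9 fell by 1.86 on the log2 scale in Ctnnb1-mutated tumors (SE 0.36, adjusted p = 0.0105). It rose by 2.11 in Egfr- or Hras-mutated tumors (SE 0.29, adjusted p = 0.000757) and by 1.16 in tumors without these drivers (SE 0.30, adjusted p = 0.0364). Sox9 differed between Ctnnb1-mutated and the other tumors by -3.49 on the log2 scale (SE 0.41, adjusted p = 0.000556), and this difference passed the test under every alternative and with each library left out. In this and the following paragraphs on classes, adjusted p values are from edgeR's quasi-likelihood test with Benjamini-Hochberg adjustment over 15182 genes. With 2 tumors in a class, single libraries weigh heavily: the fall in Ctnnb1-mutated tumors had an adjusted p of 0.1004 without T-HCC662 and 0.0565 without T-HCC663. The rise in tumors without these drivers was kept in 6 of the 12 analyses that left out 1 library. It was lost without L662, L663, L941, L992, TCi-HCA984, or T-HCA992, with an adjusted p from 0.0546 without L992 to 0.247 without T-HCA992. Between Egfr- or Hras-mutated tumors and those without these drivers, Sox9 had a log2 fold change of 0.95 with a 95% interval from 0.11 to 1.79 and did not pass the test (adjusted p = 0.542).

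Spp1 showed no overlap of any tumor with the livers, but in both directions. It encodes osteopontin, a secreted phosphoprotein that binds integrins and CD44 and is made by cholangiocytes and by macrophages. In L662, L663, L941, L992, L981, and L984, its level was 64.0, 39.5, 51.9, 38.6, 112.9, and 97.7 CPM. In their tumors it was 13.9, 30.5, 383, 1037, 4.16, and 261 CPM. T-HCC941, T-HCA992, and TCi-HCA984 were above every liver, and T-HCC662, T-HCC663, and TCi-HCC981 were below every liver. The share of all genes with each tumor outside the range of the livers was not counted, so how unusual this is remains unknown. The mean was 67.4 ± 31.1 CPM (SD, n = 6) in livers and 288 ± 398 CPM (SD, n = 6) in tumors. The log2 ratio to the own liver ran from -4.73 in TCi-HCC981 to 4.74 in T-HCA992, while the median of all genes on chromosome 5 in these tumors was -0.18 and 0.04. The study reports a gain on this chromosome in TCi-HCC981 and T-HCC941, and its part in the Spp1 levels was not tested.

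The 2 tumors of the Egfr or Hras class were at opposite ends for Spp1. Their fitted log2 fold change against livers, 1.48, did not pass the test (adjusted p = 0.296), and its sign turned with the libraries used. It was -4.05 without T-HCC941 and 2.46 without TCi-HCC981, fits that leave 1 tumor in the class. The 2 tumors had no common direction for this gene. In tumors without these drivers the log2 fold change was 3.26 (SE 0.92, adjusted p = 0.0511, and 0.0281 in DESeq2), and in Ctnnb1-mutated tumors it was -1.63 (SE 1.13, adjusted p = 0.420). The summed level of the 8 macrophage markers was 134, 265, 234, 268, 1318, and 114 CPM in L662, L663, L941, L992, L981, and L984, and 92.3, 599, 154, 162, 981.1, and 119 CPM in their tumors. L981 had the highest sum and the most Spp1 of the livers, whereas TCi-HCC981 had the highest sum and the least Spp1 of the tumors. The part of macrophages in the Spp1 levels was not tested. The pan-macrophage markers Adgre1, Cd68, and Csf1r had reads in every library.

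Keratins 8 and 18 were the most abundant members and were raised in part of the tumors. Krt8 stood at 257, 248, 387, 259.8, 396, and 266 CPM in L662, L663, L941, L992, L981, and L984. In the tumors of these mice it stood at 981.5, 605, 452, 434, 283, and 213 CPM. The 4 tumors of p21+/Tert mice were above every liver, TCi-HCC981 was within the range of the livers, and TCi-HCA984 was below it. Krt18, its type I partner, was at 319, 358, 489.6, 258, 594, and 365 CPM in the same livers and at 898, 629.7, 676, 563, 636, and 382 CPM in the same tumors. Each tumor had more Krt18 than its own liver, as 11.0% of genes did (11.5% of genes were lower in each tumor), but T-HCA992 and TCi-HCA984 stayed within the range of the livers.

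Krt8 rose by 1.37 on the log2 scale in Ctnnb1-mutated tumors against livers (SE 0.32, adjusted p = 0.0250), and was higher by 1.19 than in the other tumors (SE 0.35, adjusted p = 0.0473). Neither call was firm. With the mouse as a block the log2 fold changes were 1.59 (adjusted p = 0.0560) and 1.57 (adjusted p = 0.122), and without T-HCC662, the tumor with the highest Krt8, the first was 0.96 (adjusted p = 0.245). The first also had an adjusted p of 0.0508 without L662 or L663, and the second was kept in 3 of 12 analyses that left out 1 library (adjusted p from 0.0377 to 0.329). Krt18 did not pass edgeR's test in any comparison of all 12 libraries. Its log2 fold change was 0.66 in all 6 tumors (SE 0.25, adjusted p = 0.119) and 0.92 in Ctnnb1-mutated tumors (SE 0.31, adjusted p = 0.0994), where it passed in DESeq2 (adjusted p = 0.0422) and in edgeR without L981 (adjusted p = 0.0472). The ratios of Krt8 and Krt18 to the own liver varied together over the 6 tumors (r = 0.93, and r = 0.82 for levels over 12 libraries), as a description.

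Per kilobase, the Krt18 level was between 1.35 and 2.04 times the Krt8 level in livers. The tumors T-HCC662, T-HCC663, T-HCA992, and T-HCC941 had ratios of 1.25, 1.42, 1.77, and 2.04, but the ratio was 2.44 in TCi-HCA984 and 3.06 in TCi-HCC981, the tumors of p21+/TertCi mice. Krt8, Krt18, and Krt7 lie together on chromosome 15, whose 551 genes had a median log2 ratio to the own liver of 0.58 in T-HCC662, the highest of 20 chromosomes in that tumor. This median was 0.40 in TCi-HCC981, 0.22 in T-HCC663, 0.18 in TCi-HCA984, 0.17 in T-HCC941, and 0.04 in T-HCA992. The chromosome median was thus high in T-HCC662, where Krt8 was high (log2 ratio 1.93), and also in TCi-HCC981, where Krt8 was not (-0.49). The study's tumor DNA shows a gain on chromosome 15 in both of these tumors, and its discussion names T-HCC663 as well. The part of chromosome 15 in the keratin levels was not tested. Pseudogenes similar to each of this pair exist, Krt8-ps over 48.1% and Gm5200 over 88.1% of the transcript. Neither is counted under its own symbol, so reads from them cannot be told apart from those of the genes.

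**Figure D2:**
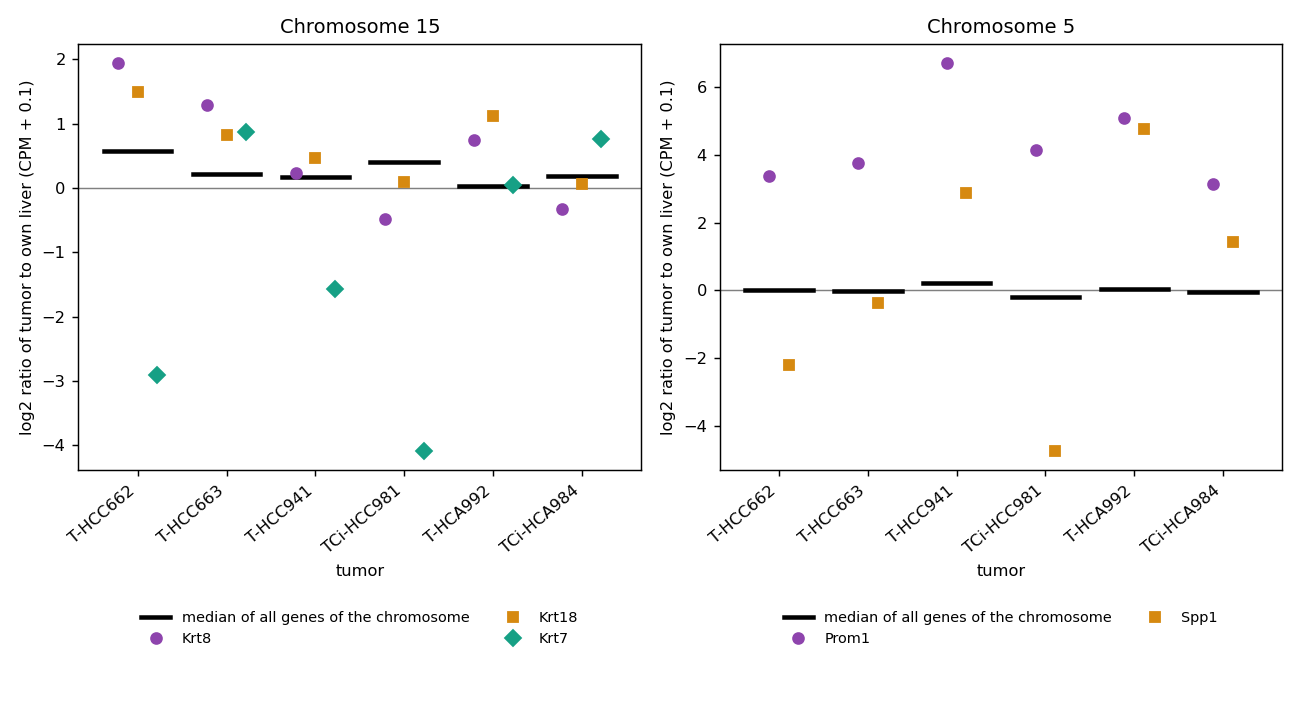
Log2 ratio of each tumor to its own liver, on the log2(CPM + 0.1) scale, for the members on chromosome 15 (left) and chromosome 5 (right), with bars at the median of all genes of the chromosome that passed the filter. Prom1 and the extremes of Spp1 lie far from the bars, whereas Krt18 in TCi-HCC981 and TCi-HCA984 lies just below them.

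Keratins 7 and 19, the pair that sets cholangiocytes apart from hepatocytes, were near the limit of detection in most libraries. Krt7 had 0.989, 0.193, 0.834, 1.18, 1.596, and 0.194 CPM in L662, L663, L941, L992, L981, and L984. In the tumors of these mice it had 0.0451, 0.438, 0.216, 1.22, 0, and 0.398 CPM. Krt19 had 0.636, 0.580, 0.455, 2.09, 2.94, and 0.485 CPM in the same livers, and 1.26, 0.964, 0.324, 1.00, 0, and 0.738 CPM in the same tumors. TCi-HCC981 had 0 reads of both, which allows up to 0.154 CPM, against 38 and 70 reads in its own liver. Krt7 was therefore at least 10.4-fold lower, and Krt19 at least 19.1-fold lower, in this tumor than in its own liver. These 2 limits take the level in the liver as exact and leave out its counting error. T-HCC662 had 1 read of Krt7 against 14 in its own liver, which was 21.9-fold lower with a 95% interval from 3.34 to 928. In T-HCC663, Krt7 had 10 reads against 3, a ratio of 2.27 with an interval from 0.583 to 12.8, which includes no difference.

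Neither gene passed the test in any comparison by edgeR: in all 6 tumors the log2 fold change was -1.07 (SE 0.80, adjusted p = 0.433) for Krt7 and -0.75 (SE 0.72, adjusted p = 0.551) for Krt19. DESeq2 called Krt19 in Egfr- or Hras-mutated tumors (-2.92, adjusted p = 0.0304), the class of the tumor with 0 reads. Both keratins are also made by the mesothelium that covers the liver. The summed level of the 6 mesothelial markers was 8.90, 1.29, 5.84, 7.67, 7.48, and 1.36 CPM in L662, L663, L941, L992, L981, and L984, and 1.49, 1.01, 2.70, 1.61, 2.62, and 4.03 CPM in their tumors. L663 and L984, with the lowest sums of the livers, also had the lowest Krt7 of the livers, but the tumor with the highest sum, TCi-HCA984, was not the tumor with the most Krt7, T-HCA992. Of these markers, Msln and Upk3b were at 0 reads in L663, Upk3b, Upk1b, and Wt1 were at 0 in T-HCC662 and T-HCC663, and all 4 of these were at 0 in TCi-HCC981, whose sum came from Lrrn4 and Gpm6a. The part of mesothelium in the Krt7 and Krt19 levels was not tested.

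Epcam, an adhesion glycoprotein of ducts and progenitors that mature hepatocytes lack, was low in every library and lower still in 3 tumors. Its level was 1.48, 0.451, 0.986, 1.34, 1.85, and 0.969 CPM in L662, L663, L941, L992, L981, and L984. In their tumors it was 0.180, 0.482, 0.216, 2.58, 0.257, and 0.909 CPM. T-HCC662, T-HCC941, and TCi-HCC981 were below every liver and T-HCA992 was above every liver. The fitted log2 fold change was -0.60 in all 6 tumors (SE 0.64, adjusted p = 0.595), -1.84 in Ctnnb1-mutated tumors (SE 0.72, adjusted p = 0.142), and -2.32 in Egfr- or Hras-mutated tumors (SE 0.76, adjusted p = 0.0529). The last passed in DESeq2 (adjusted p = 0.0200). The ratios of Epcam and Krt7 to the own liver varied together (r = 0.90 over 6 tumors, and r = 0.88 for levels over 12 libraries), on few reads.

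Cd24a encodes a small, heavily glycosylated surface protein of progenitor, ductal, and B cells. Its level was 1.27, 2.19, 2.20, 6.01, 3.44, and 2.33 CPM in L662, L663, L941, L992, L981, and L984. In their tumors it was 1.98, 3.90, 2.92, 6.06, 3.54, and 7.38 CPM. Each tumor was above its own liver, but by only 0.01 on the log2(CPM + 0.1) scale in T-HCA992 and 0.04 in TCi-HCC981. The summed level of the 4 B cell markers was 8.05, 6.71, 3.49, 40.8, 12.9, and 0.679 CPM in these livers and 2.43, 4.56, 3.29, 3.58, 17.7, and 1.48 CPM in these tumors. It was highest in L992, the liver with the most Cd24a, but lowest of the tumors in TCi-HCA984, the tumor with the most Cd24a. The part of B cells in the Cd24a levels was not tested. The log2 fold change was 0.56 in all 6 tumors (SE 0.41, adjusted p = 0.419) and 1.21 in tumors without these drivers (SE 0.48, adjusted p = 0.145).

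Tumor by tumor, the 10 genes did not move as a block. Against the own liver and without a test, on the log2(CPM + 0.1) scale, T-HCC662 had 3 members over 2-fold up and 5 over 2-fold down, where 13.1% of all genes were up and 10.5% down by this measure. T-HCC663 had 3 up and 1 down (14.2% and 10.7% of all genes), and T-HCC941 had 4 up and 2 down (18.5% and 12.1%). The 2 down in T-HCC941 were Krt7 and Epcam, each with 4 reads in the tumor. With a pseudocount of 1 CPM they were at -0.59 and -0.71 on the log2 scale, short of 2-fold. So were Krt7 (-0.93, 1 read) and Krt23 (-0.80, 4 reads) in T-HCC662. TCi-HCC981 had 2 up, Prom1 and Sox9, and 4 down, Epcam, Spp1, Krt7, and Krt19 (12.3% and 11.1% of all genes). The adenomas without these drivers had 5 up and 0 down each, with all genes at 11.5% and 9.69% in T-HCA992 and at 12.5% and 5.69% in TCi-HCA984. In T-HCA992 the 5 were Sox9, Prom1, Spp1, Krt18, and Krt23, and in TCi-HCA984 they were Sox9, Prom1, Cd24a, Spp1, and Krt23. The classic duct keratins Krt7 and Krt19 were in neither set.

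**Figure D3:**
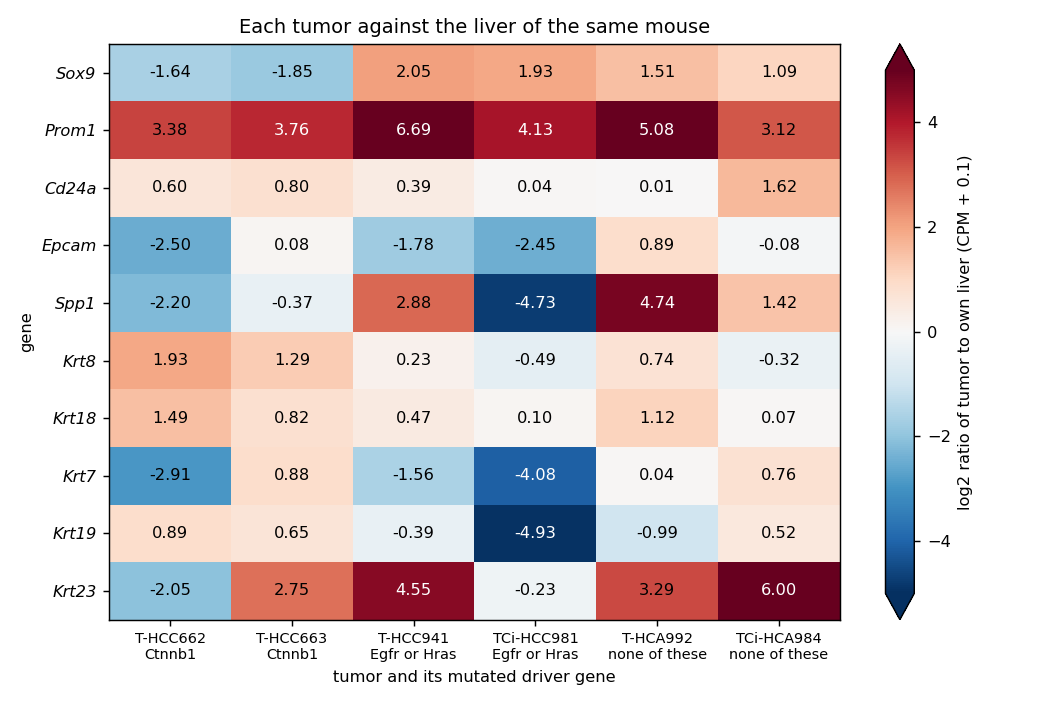
Log2 ratio, on the log2(CPM + 0.1) scale, of each of 6 tumors (columns, with the mutated driver gene) to the non-tumoral liver of the same mouse for the 10 genes (rows), with colors that saturate at 5 in either direction. The Prom1 row is raised throughout, Sox9 is negative only in the 2 Ctnnb1-mutated tumors, and the lowest values are those of Krt19, Spp1, and Krt7 in TCi-HCC981.

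By genotype, Prom1 was the single member that rose in the 4 p21+/Tert tumors against the 4 p21+/Tert livers (1 of 10, where 4.20% of 15182 genes rose, with 0 of 10 down, where 2.30% fell). It changed by 4.96 on the log2 scale (SE 0.71, adjusted p = 0.00477, edgeR's quasi-likelihood test). Krt8 (log2 fold change 1.08, adjusted p = 0.0638) and Krt18 (0.94, adjusted p = 0.0863) did not pass, whereas DESeq2 called both (adjusted p = 0.00680 and 0.0137) and Krt23 (2.97, adjusted p = 0.0346). In the 2 p21+/TertCi tumors against the 2 p21+/TertCi livers, edgeR called 0 genes of 15182 in either direction (0.00%), 0 of the members included, while 1618 genes (10.7%) had an unadjusted p under 0.05. Prom1 was among the latter, at 3.87 on the log2 scale (SE 0.93, adjusted p = 0.201), and DESeq2 called it (3.90, adjusted p = 0.00131).

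The difference between the genotypes in the tumor effect was tested as an interaction. It passed for 0 genes (0.00% in each direction, with 556 genes, 3.66%, at an unadjusted p under 0.05, and 0 members called by DESeq2 as well). Krt8 had the lowest unadjusted p of the members: it was higher in the tumor than in the own liver of each of the 4 p21+/Tert mice, with a mean log2 ratio of 1.05, and lower in both p21+/TertCi mice, with a mean of -0.40. The share of all genes with this split was not counted. The ratio was 1.93 and 1.29 in the Ctnnb1-mutated T-HCC662 and T-HCC663, against 0.23 in T-HCC941 and 0.74 in T-HCA992. Driver class and genotype can thus not be fully separated here. The interaction for Krt8 was -1.52 (95% interval from -2.70 to -0.33, unadjusted p = 0.0165 in edgeR's quasi-likelihood test) and did not pass after adjustment. For Prom1 the interaction was -1.09 with an interval from -3.41 to 1.23, and for Sox9 it was 0.89 with an interval from -1.72 to 3.50, so that sizeable differences between the genotypes in either direction are within the error. The livers of the genotypes were compared as well, with 0 genes called (0.00% in each direction, 756 genes or 4.98% at an unadjusted p under 0.05). Spp1 was at 48.5 ± 12.0 CPM (SD, n = 4) in p21+/Tert and 105 ± 10.8 CPM (SD, n = 2) in p21+/TertCi livers, a log2 fold change of 1.13 with an interval from -1.98 to 4.24.

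By driver class, 3 of 10 members were called in Ctnnb1-mutated tumors against livers: Prom1 and Krt8 rose, where 5.00% of all genes rose, and Sox9 fell, where 3.20% fell. The rise of Prom1 was 3.42 on the log2 scale (SE 0.57, adjusted p = 0.00467), and without T-HCC663 it was 2.47 (adjusted p = 0.0745). In Egfr- or Hras-mutated tumors, Prom1 and Sox9 rose and 0 members fell, where 9.57% of all genes rose and 8.62% fell, and the rise of Prom1 was 5.00 (SE 0.57, adjusted p = 0.000261). In tumors without these drivers, Prom1 and Sox9 rose and 0 members fell, where 5.67% of all genes rose and 2.43% fell, and the rise of Prom1 was 4.55 (SE 0.57, adjusted p = 0.00104). These comparisons share the same 6 livers. The class without these drivers also had a log2 fold change of 3.66 for Krt23 (SE 1.13, adjusted p = 0.0692, and 0.0163 in DESeq2), with both tumors above every liver. The share of all genes for which both tumors of this class lay above every liver was not counted.

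Between classes, Ctnnb1-mutated tumors had lower Sox9 and higher Krt8 than the 4 others, 1 member in each direction, where 5.72% of all genes were lower and 6.76% higher. Both Ctnnb1-mutated tumors were below each of the other 4 for Sox9, as were 19.0% of all genes, and above each of them for Krt8, as were 19.3%. Spp1 differed by -4.00 on the log2 scale (SE 1.34, adjusted p = 0.0702) and Prom1 by -1.35 (SE 0.67, adjusted p = 0.200). Egfr- or Hras-mutated tumors and those without these drivers did not differ in any gene after adjustment (0 genes, 0.00% in each direction, with 1331 genes or 8.77% at an unadjusted p under 0.05). The largest difference of a member relative to its error was in Epcam, at -2.88 with a 95% interval from -4.73 to -1.04 (adjusted p = 0.466).

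**Figure D4:**
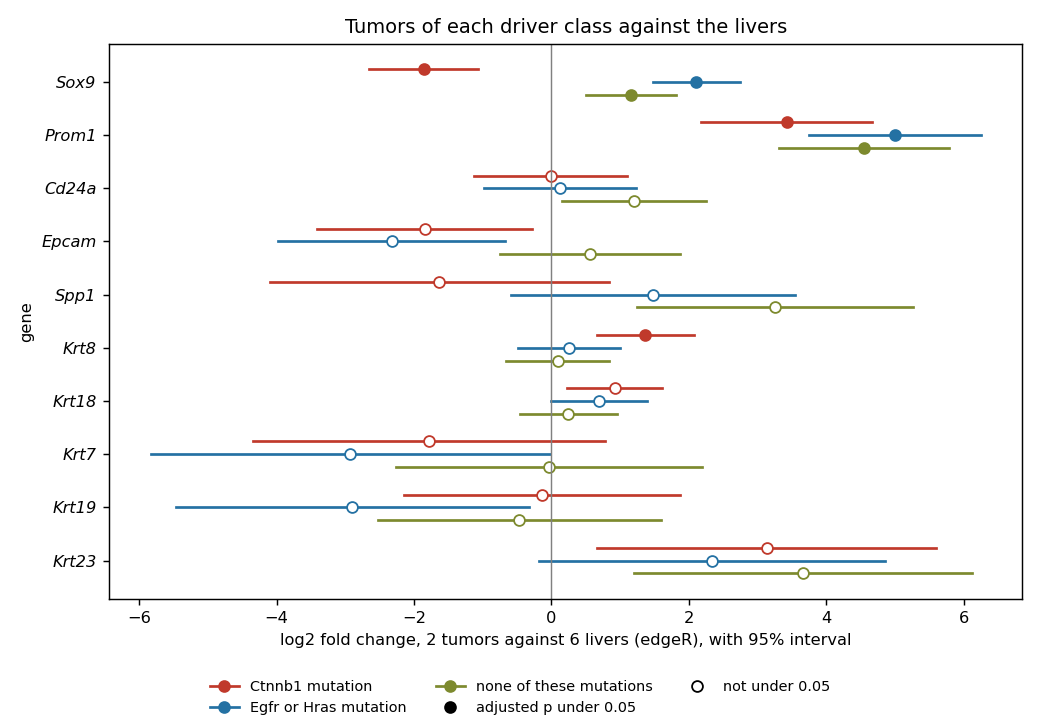
Log2 fold change of the 2 tumors of each driver class against the 6 non-tumoral livers in edgeR, with 95% intervals, for the 10 genes; filled symbols mark an adjusted p under 0.05. Sox9 has intervals on opposite sides of 0 for the Ctnnb1 class and the others, and Prom1 lies to the right of 0 in all classes.

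Other genes of the ductal and progenitor programs were counted to set these members in context. Of 25 other duct genes, 20 were tested in the 6 tumors, 5 rose and 0 fell (2 rose with the mouse as a block, 9 in DESeq2, and 3 to 7 with 1 library left out), beside 6.77% and 3.91% of all genes. The count was 3 without L662, L663, L941, L984, T-HCC941, T-HCA992, or TCi-HCC981, and 7, with 1 down, without T-HCC662. Those that rose were Tspan8, a tetraspanin of secretory epithelia (log2 fold change 6.80, SE 1.35), the epithelial transcription factors Elf3 (2.95, SE 0.66) and Ehf (2.30, SE 0.65), the membrane protease St14 (3.33, SE 0.78), and the tight junction protein Cldn7, an EPCAM partner (3.91, SE 1.12). Tspan8 had at most 1.29 CPM in livers and 154 and 221 CPM in T-HCC941 and TCi-HCC981, but 0.0451 and 2.19 CPM in the Ctnnb1-mutated T-HCC662 and T-HCC663. The duct chloride channel Cftr and the secretin receptor Sctr were at most at 0.573 CPM in any library and were not tested for the 6 tumors. The summed level of the 25 genes was between 1382 and 2345 CPM in livers and between 638 and 2773 CPM in tumors.

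In the 6 tumors, 6.77% of all genes rose and 3.91% fell, which holds beside each count in this paragraph. Of 16 other progenitor genes, 11 were tested and 6 rose in the 6 tumors, with 0 down (7 rose with the mouse as a block). They were the TWEAK receptor Tnfrsf12a (log2 fold change 2.502, SE 0.42), the fetal plasma protein Afp (4.06, SE 0.74), the laminin receptor Itga6 (3.76, SE 0.71), Sox4 (4.09, SE 0.80), the oncofetal RNA-binding protein Igf2bp3 (2.01, SE 0.48), and Alcam (1.54, SE 0.44). Of 17 genes of the Notch and YAP pathways, targets of these pathways included, 6 rose and 0 fell: Ajuba, Wwtr1, Nrarp, Hey1, Jag2, and Notch3. Their log2 fold changes ran from 0.80 for Wwtr1 to 2.86 for Jag2. Of 8 plakins and desmosome genes that anchor keratins, Ppl (1.26, SE 0.35) and Plec (0.76, SE 0.23) rose, but this count was 0 or 1 when any library other than T-HCC663 was left out. Of 12 receptors and binding partners of osteopontin, CD24, and EPCAM, Cd9, Itgav, and Cldn7 rose and 0 fell. Here the count was 0 without L662, L663, L992, T-HCC941, T-HCA992, or TCi-HCC981, and 1 without L941. The count of Notch and YAP genes was 4 to 7 and that of progenitor genes 5 to 7 with 1 library left out. The count of 4 came without L662, L941, or T-HCC941.

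Between Ctnnb1-mutated and the other tumors, the calls in the same lists were downward in edgeR, and fewer were called without T-HCC662. Of 22 duct genes tested, 5 were lower: Tspan8 (log2 fold change -6.26, SE 0.97), Cldn7 (-6.40, SE 1.20), and the cilium genes Pkd2, Pkhd1, and Bicc1. Of 13 progenitor genes, Itga6 (-3.98, SE 0.46), Alcam (-2.41, SE 0.31), and Afp (-3.09, SE 0.72) were lower, and of 17 Notch and YAP genes Notch2 (-1.21, SE 0.24), Heyl (-3.34, SE 0.87), and Rbpj (-0.84, SE 0.25) were lower. Itgav, Cd9, Cldn7, and Itgb3, 4 of the 12 ligand and receptor partners, were lower as well, and so was Dsg2 among the 8 keratin anchors. With the mouse as a block, 2 of the progenitor genes and 0 of the duct, Notch and YAP, partner, and anchor genes were called. With 1 library left out, the count was 1 to 5 for duct genes, 2 to 5 for progenitor genes, 0 to 3 for Notch and YAP genes, 0 to 4 for partners, and 0 to 1 for anchors. The lowest counts for duct, Notch and YAP, and partner genes all came without T-HCC662, and the anchor was lost without T-HCC662 or T-HCC663. The duct count was also 2 or 3 without T-HCC941, T-HCA992, TCi-HCC981, or TCi-HCA984. The Notch and YAP count was 1 without T-HCC663 or TCi-HCC981, and the partner count was 2 without T-HCC663, TCi-HCC981, or TCi-HCA984. The progenitor count was 2 without T-HCC662 or T-HCC663 and 5 without L984. A total of 0 genes of these lists were higher in Ctnnb1-mutated tumors in edgeR with all 12 libraries, and 1 duct gene was in DESeq2. Of all genes tested, 5.72% were lower and 6.76% higher in this comparison. Lists of other cell types held lower genes too: 3 of 8 hepatocyte (1 was higher), 2 of 8 stellate and fibroblast, and 2 of 6 endothelial markers. With the mouse as a block, 1, 0, and 1 of these were lower. Of 3 erythroid markers, 1 was higher. Lower calls were thus not limited to the duct and progenitor lists.

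Against livers, 5.00% of all genes rose and 3.20% fell in Ctnnb1-mutated tumors. These shares were 9.57% and 8.62% in Egfr- or Hras-mutated tumors, and 5.67% and 2.43% in tumors without these drivers. Ctnnb1-mutated tumors had 0 of 22 duct genes up and 1 down, and 1 of 13 progenitor genes up. Egfr- or Hras-mutated tumors had 6 of 22 duct genes up and 1 down, and 7 of 13 progenitor genes up. Tumors without these drivers had 5 of 22 duct genes and 6 of 13 progenitor genes up. With the mouse as a block these counts were 3 and 7 in the Egfr or Hras class and 1 and 3 in the class without these drivers. With 1 library left out, they were 3 to 8 and 5 to 8 in the Egfr or Hras class, lowest without T-HCC941, and 2 to 6 and 2 to 6 in the class without these drivers, lowest without T-HCA992. In the Ctnnb1 class the counts up were each 0 to 2. Among 17 other keratins, 6 had enough reads for the fit of classes. Krt20 and Krt5 passed the filter on reads through the tumors alone, so that their levels are given as a description, with no test. Krt20, a keratin of intestinal and urothelial epithelium, was at 1.397, 12.7, 14.5, 40.1, 0.205, and 10.6 CPM in the tumors, in the order of mice used throughout, and at most at 0.0645 CPM in livers. The 2 tumors of the Egfr or Hras class, T-HCC941 and TCi-HCC981, were thus far apart. Krt5, a keratin of basal epithelium, had 0 reads in all 6 livers which allows up to 0.227 CPM at the lowest depth, and between 0.219 and 4.31 CPM in tumors.

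Markers of other cell types were compared between the groups, since several members are not restricted to ducts. The summed level of 8 hepatocyte markers was between 36109 and 61316 CPM in livers and between 20814 and 94647 CPM in tumors, and Ass1, of the urea cycle, fell (log2 fold change -2.82, SE 0.41). The 8 stellate and fibroblast markers summed to between 58.6 and 269 CPM in livers and between 31.5 and 377 CPM in tumors, and the 6 endothelial markers to between 53.1 and 165 CPM and between 50.8 and 256 CPM, with Pecam1 up (1.59, SE 0.38). Neutrophil markers (1.62 to 23.96 CPM in livers and 0.496 to 11.9 CPM in tumors), T cell markers (0.436 to 5.21 CPM and 0.965 to 9.56 CPM), erythroid markers (171 to 548 CPM and 136 to 1006 CPM), and the B cell markers in tumors (1.48 to 17.7 CPM) overlapped between the groups. Gpnmb was the single macrophage marker called in the 6 tumors (3.53, SE 0.53). Of the 7 pancreas and gut markers, Cpa1 and Pnlip were at 0 in every library and Vil1, the microvillus protein villin, rose (5.84, SE 1.28). None of these lists was tested for a part in the changes of the members.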

How the data were processed

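Poly(A) RNA of 6 tumors and 6 livers was sequenced as paired ends. Per the labels and methods, the authors aligned reads with Subread to mm10 and counted them per gene with featureCounts 1.6.4; the deposited values are whole-number read counts, not normalized, and whether counting used strand is not given in the sources used here. The authors corrected for sequencing run, but which library belongs to which run is not given in the sources used here, so run was not modeled and its part was not tested.

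Counts were scaled with TMM, filtered with filterByExpr, and tested with the quasi-likelihood F test of edgeR 4.0.16 in R 4.3.3, with Benjamini-Hochberg adjustment over all genes tested and a threshold of 0.05. The comparison of 6 tumors with 6 livers used a model of tissue, and the others used 1 model of genotype and tissue or of driver class over all 12 libraries. A class fold change is relative to the mean of the classes named. Samples of 1 animal share a number, and the mouse as a block was an alternative. The pairing comes from the animal. As a check, deviations of tumors from their group correlated with those of the own livers with r of 0.169, 0.040, 0.0058, and 0.427 in the 4 p21+/Tert mice, and 0.542 in the p21+/TertCi pair, where groups of 2 give a single value. Separate tumors of separate mice are the replicates. Other alternatives were DESeq2 1.42.0, RLE size factors, no filter beyond 1 count per gene, fits to only the groups compared, the omission of each library, a pseudocount of 1 in place of 0.1 CPM, and the mean of 6 livers in place of the own liver. The test of 6 tumors against 6 livers was checked on simulated data, and the fits of genotype and of driver class were not. Gene positions are those of GENCODE M21, and lengths those of the longest consensus transcript.

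The 10 genes, the gene lists, and the comparisons were chosen with earlier results of these data known. The genes named are the 10, up to 6 genes of each list in order of p among those past the threshold, the 3 most similar in pattern to each member called in the 6 tumors, and markers that define other cell types. Ccn1, Trac, and Ly6g of the lists were not matched.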

Additional observations from a re-analysis of the deposited data

Results flagged for a closer look

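Of 40 groups of member levels examined (each gene in the 6 livers, the 6 tumors, the 4 p21+/Tert livers, and the 4 p21+/Tert tumors), 6 had 1 library far from the rest by Dixon's test. T-HCA992 stood far above the other tumors in 4 of them: Krt7 was at 1.22 CPM against at most 0.438 CPM, Epcam at 2.58 CPM against at most 0.909 CPM, and Spp1 at 1037 CPM against at most 383 CPM among the 6 tumors, and Epcam at 2.58 CPM against at most 0.482 CPM among the p21+/Tert tumors. Among the p21+/Tert livers, Krt8 was far higher in L941 (387 CPM) than in the others (248 to 259.8 CPM), and Krt19 in L992 (2.09 CPM against 0.455 to 0.636 CPM). Chance gives a far library in about 5% of groups if levels are normal and groups are separate. The test was run on CPM, some from few reads, and the p21+/Tert groups lie within the groups of 6. The 6 groups found can therefore not be set against that share.

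Effects that differed between groups of tumors were those of Sox9 and Krt8, with a log2 fold change of Ctnnb1-mutated against other tumors of -3.49 and 1.19 and an adjusted p of 0.000556 and 0.0473 in edgeR's quasi-likelihood test. The ratio of Krt8 to the own liver was negative in both p21+/TertCi tumors (mean -0.40 on the log2(CPM + 0.1) scale) and positive in all 4 p21+/Tert tumors (mean 1.05), and this difference did not pass the test of the interaction after adjustment. The share of all genes with this split was not counted. The Ctnnb1-mutated tumors are all p21+/Tert, so that class and genotype cannot be fully separated.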

How the results depend on the processing

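Prom1 in the 6 tumors and in p21+/Tert tumors, Sox9 in Egfr- or Hras-mutated tumors, and Sox9 between Ctnnb1-mutated and other tumors passed the test under each alternative and with each library left out. Of the 10 members, 2 were called in the 6 tumors, and 1 was called when every gene with at least 1 count was tested, 1 with the replicate block, and 1 to 2 with a library left out. In p21+/Tert tumors 1 was called, and 4 in DESeq2. In p21+/TertCi tumors 0 were called, and 1 in DESeq2. In Ctnnb1-mutated tumors 3 were called, and 1 to 4 with a library left out. In Egfr- or Hras-mutated tumors 2 were called, and 4 in DESeq2. In tumors without these drivers 2 were called, 4 in DESeq2, 4 with only the libraries of the groups compared, and 1 to 3 with a library left out. Between Ctnnb1-mutated and other tumors 2 were called, and 1 was called when every gene with at least 1 count was tested, 1 with the replicate block, 1 with only the libraries of the groups compared, and 1 to 2 with a library left out. The value that reversed was Spp1 in Egfr- or Hras-mutated tumors (log2 fold change 1.48): it was -0.88 with the replicate block and between -4.05 and 2.46 with a library left out, since the class holds 2 tumors of opposite direction. Of the 60 ratios to the own liver, 50 moved by less than 1 SD of the livers with a pseudocount of 1 CPM, and 40 with the mean of 6 livers as reference, where 7 changed sign. Krt7, Krt19, Epcam, and Prom1 in livers rest on few reads, so that differences within their intervals were not detectable at this depth. The cause of these shifts was not tested.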

Other observations

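Lcn2, the iron-binding lipocalin of the progenitor list, was at 4776 CPM in L984, whose hepatocyte gene Ass1 was at 89.4 CPM. The members were within the range of the other livers in this library, except for Krt23, which was lowest in it at 0.0969 CPM.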
